A study of Mus musculus with 24 samples.

Results

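The nuclear genes of the mitochondrial respiratory chain were followed through 3 sorted cell populations of mouse mammary tumours and normal mammary glands. The genes were chosen by symbol alone: every gene whose name begins with Nduf, Uqcr, Cox4 to Cox8 or Atp5, together with Sdha, Sdhb, Sdhc and Sdhd, and leaving out Ndufa4l2. This gave 89 of the 18193 genes that had a probe set (a group of short probes for the same transcript) annotated to that gene only, and each gene was read from its probe set with the highest mean signal. They comprised 35 genes of complex I, 8 complex I assembly factors (the Ndufaf genes), 4 of complex II, 8 of complex III, 17 of complex IV and 17 of complex V. A filter on low signal, set over all genes, was passed by 83 of the 89. Ndufb4, Cox4i2, Cox6a2, Cox7b2, Cox8b and Cox8c did not pass it, so 34 of the 35 complex I genes and 12 of the 17 complex IV genes were tested.

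The tumour arrays came from 5 mammary adenocarcinomas (A to E) of C57BL6/J mice of genotype Apc+/1572T, in which 1 copy of Apc, a tumour suppressor that restrains Wnt signalling, is shortened. The control arrays came from 3 independently isolated pools (F to H) of mammary glands of C57BL6/J Apc+/+ mice. From each tumour and pool 10000 cells were sorted of each of 3 populations by surface proteins: Lin-CD29hiCD24+ cells (called CD29hi here), the gate used for stem cells, Lin-CD29+CD24+ cells (CD29+), their more differentiated counterparts, and Lin- cells, from which lineage-marked cells had been removed. CD29 is the integrin beta 1 chain and CD24 a surface glycoprotein, and the study compared tumour with normal cells and the stem cell gate with its counterparts. The labels give neither the animals' ages nor the number of glands in a pool, and the Lin- population is a mixture that can contain cells of both CD24+ gates.

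The respiratory chain sits in the inner mitochondrial membrane. Complex I (NADH dehydrogenase) and complex II (succinate dehydrogenase, also an enzyme of the citric acid cycle) pass electrons to ubiquinone, complex III (the cytochrome bc1 complex) passes them to cytochrome c, and complex IV (cytochrome c oxidase) passes them to oxygen. Complexes I, III and IV pump protons, and complex V (ATP synthase) uses the gradient to make ATP. Apart from a small set of core subunits encoded by mitochondrial DNA, the subunits are nuclear genes, and they are known to be transcribed with shared regulators such as Nrf1, the ETS factor Gabpa, Yy1 and Esrra. In the mammary gland the demand for ATP is known to be high in the secretory luminal cells of the lactating gland.

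Signals are log2 values per probe set, and a difference of 1 is a doubling on that scale. Differences were tested with limma in a fit over all 24 arrays and 13485 genes, and a difference counts as called where its p, adjusted over all of these genes by the Benjamini-Hochberg method, was under 0.05. The actin 3′ minus 5′ signal, a measure of RNA quality, averaged 2.03 ± 0.30 in tumour CD29hi and 2.53 ± 0.35 in normal CD29hi arrays, 2.06 ± 0.36 in tumour CD29+ and 1.61 ± 0.21 in normal CD29+ arrays, and 2.09 ± 0.32 in tumour Lin- and 2.13 ± 0.67 in normal Lin- arrays (log2, SD, n = 5 and 3). The Gapdh 3′ minus 5′ signal, a second such measure, ordered the groups differently. It averaged 1.94 ± 0.09 in tumour Lin- arrays and 2.43 ± 0.29 in normal Lin- arrays. Among normal arrays it averaged 2.10 ± 0.29 in CD29hi and 2.24 ± 0.03 in CD29+ cells, the reverse of the actin order. Only the actin signal was used as a covariate, and the part of the Gapdh signal was not tested. The normal CD29hi array of pool F stood apart in cell type markers. Its endothelial markers had a median signal of 10.26, against 7.61 and 8.01 in the normal CD29hi arrays of pools G and H. Its leukocyte markers had a median of 7.70, against 2.83 and 3.07, and its luminal epithelial markers 10.19, against 13.77 and 13.44. Where a total of called respiratory chain genes rests on normal arrays, it is therefore also given without pool F. Counts of group order, markers, regulators and other gene lists are given with pool F only. Shares over all genes belong to the main fit, so counts from alternative fits stand without one unless stated. In such sorted cells, fewer cells of a type and less RNA per cell cannot be told apart.

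The respiratory chain genes had their lowest signal in the normal CD29hi cells and their highest in the other normal populations, with the tumour populations between. The group mean was lowest in normal CD29hi cells for 52 of the 83 genes and highest in normal Lin- cells for 56 and in normal CD29+ cells for 19. Per array, the median over the 83 genes was 11.19, 11.06, 10.68, 10.96 and 11.24 in the CD29hi cells of tumours A to E, against 10.61, 10.98 and 10.89 in those of pools F to H. It was 10.92, 10.91, 11.04, 10.76 and 11.08 in tumour CD29+ cells, against 11.87, 11.56 and 11.43 in normal CD29+ cells. It was 10.91, 11.14, 10.86, 10.77 and 11.18 in tumour Lin- cells, against 11.72, 11.63 and 11.86 in normal Lin- cells. The 6 normal CD29+ and Lin- arrays were above every other array. The tumour and normal CD29hi arrays overlapped, as did the 3 tumour populations with each other. As the plot of the array medians shows, the gates stood apart in normal glands and not in tumours.

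**Figure D1:**
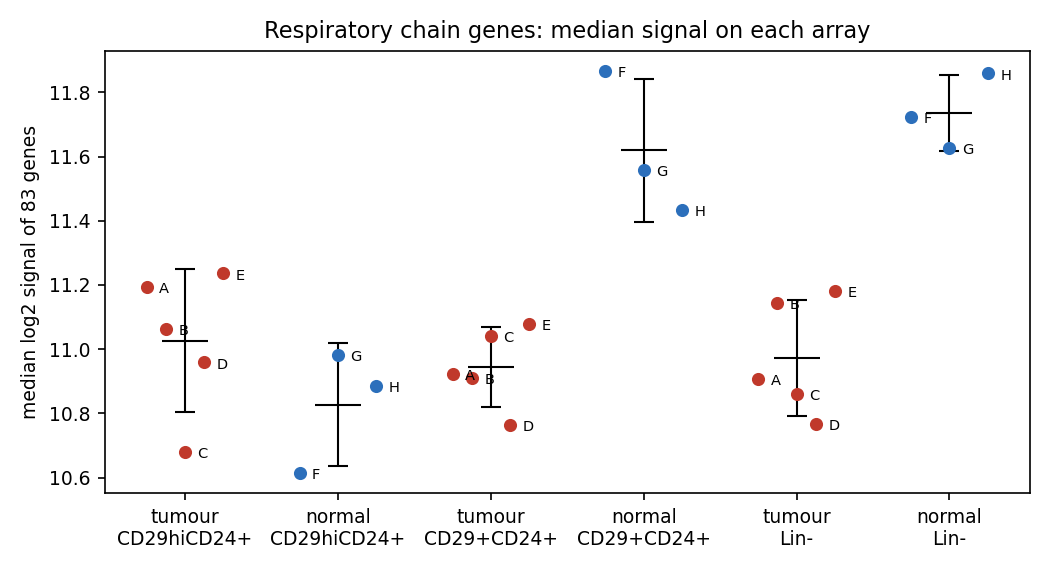
Median log2 signal of the 83 tested respiratory chain genes in each array (vertical axis), by sorted population with tumours left of normal pools. Each point is 1 array with its letter, and black marks are group means with SD. The normal CD29+ and Lin- arrays lie between 11.43 and 11.87, and the other 18 arrays between 10.61 and 11.24.

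The first comparison asked how the stem cell gate differs from its more differentiated counterparts in normal glands. In normal CD29hi cells 50 of the 83 genes were lower than in normal CD29+ cells and 1, the assembly factor Ndufaf4, was higher. Over all genes tested, 25.3% were lower and 21.3% higher. The median over the 83 genes was -0.60 (a 1.51-fold lower signal), beside -0.03 over all genes, and 4 of the 83 had a positive difference. Within each pool the median of CD29hi minus CD29+ was -0.94 in F, -0.44 in G and -0.45 in H, with 78, 69 and 70 of the 83 genes lower. Without pool F, 26 genes were lower and 1 higher. Adding the actin difference as a covariate, 26 were lower and 2 higher.

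Complex I and complex II had the largest median differences between the normal gates. In complex I 24 of 34 tested genes were lower (median -0.82), in complex II 3 of 4 (-0.89), in complex III 3 of 8 (-0.40), in complex IV 5 of 12 (-0.41) and in complex V 11 of 17 (-0.43). Of the 8 assembly factors 4 were lower and 1 higher (-0.62). Without pool F the genes called lower were 14 of complex I, 3 assembly factors, 2 of complex II, 1 of complex III, 2 of complex IV and 4 of complex V. No test of the difference between complexes was run, and the complexes differ in how bright their probe sets are.

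Cell type markers moved with the same gates. In normal CD29hi against normal CD29+ cells 5 of 5 basal, 5 of 6 endothelial and 3 of 4 pericyte markers were higher, 2 of 5 luminal markers were lower, and 0 of 6 leukocyte markers were called either way. The 1 tested white adipocyte marker of 7, Fabp4, was higher by 8.27, and 1 gene does not identify a cell type. The median signal of the basal markers was 12.66 to 13.55 in the normal CD29hi arrays and 2.52 to 3.15 in the normal CD29+ arrays. That of the luminal markers was 10.19 to 13.77 in normal CD29hi and 14.83 to 14.91 in normal CD29+ arrays. That of the endothelial markers was 7.61 to 10.26 in normal CD29hi and 2.40 to 2.88 in normal CD29+ arrays, where 2.40 to 2.88 is the low end of the signal range. The part of these markers, and of the actin signal, in the difference of the respiratory chain genes was not tested beyond the counts without pool F and with the covariate.

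**Figure D2:**
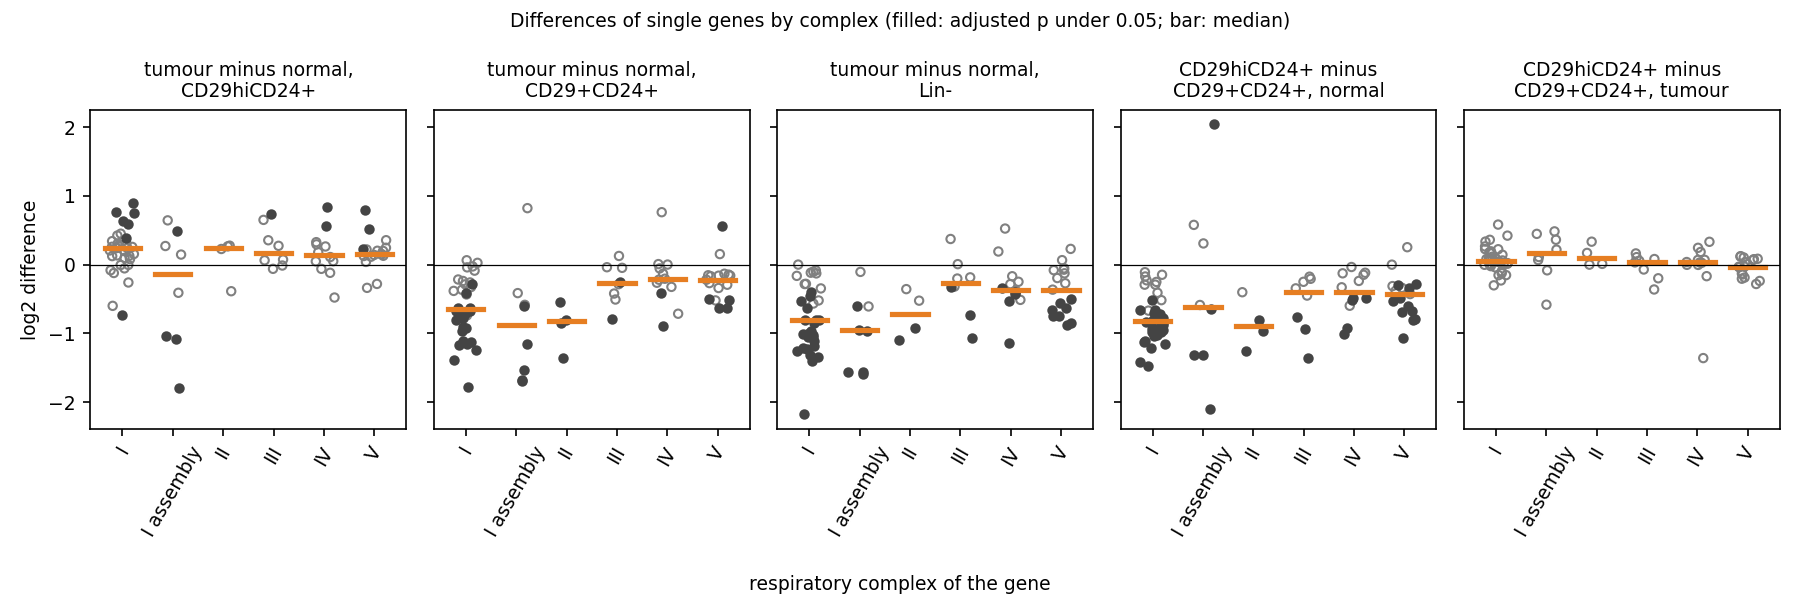
Log2 differences of the tested respiratory chain genes (vertical axis) by complex (horizontal axis) in the 3 comparisons of tumour with normal cells and the comparison of the gates in normal glands and in tumours. Each point is 1 gene, filled where limma called it, and the bar is the median. In normal CD29hi against CD29+ cells the complex I median is -0.82 and the complex V median -0.43.

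In tumours the same gates did not separate the respiratory chain genes. Between tumour CD29hi and tumour CD29+ cells limma called 0 of the 83 genes after Benjamini-Hochberg adjustment, and 5 had an unadjusted p under 0.05. Over all genes 2.25% were higher and 1.94% lower, or 304 and 261 genes, and quantile normalisation of the arrays made this 491 and 215. The median over the 83 genes was 0.04, and within tumours A to E it was 0.20, 0.15, -0.23, 0.11 and 0.02. The letters pair arrays of the same tumour, and with the letter as a block 4 genes were called. No share over all genes is given for that block, so this count has no background beside it. Ndufv3 (0.58, adjusted p = 0.0297) and Ndufaf8 (0.45, adjusted p = 0.0445) were higher and Cox7c (-1.36, adjusted p = 0.00431) and Ndufaf4 (-0.58, adjusted p = 0.00145) were lower in that limma fit.

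The gate difference itself differed between tumours and normal glands for 40 of the 83 genes, by an interaction term in the same limma fit. It was higher in tumours for 39 and lower for 1, beside 22.2% and 19.8% of all genes, and the median was 0.61, beside 0.04 over all genes. By complex these were 21 of 34 in complex I, 4 of 8 assembly factors with 1 lower, 3 of 4 in complex II, 1 of 8 in complex III, 3 of 12 in complex IV and 7 of 17 in complex V. Without pool F 23 genes were called, and with the actin covariate 26. Cell type markers moved with this difference as well: 5 of 5 basal (median -9.64), 5 of 6 endothelial (-5.16) and 3 of 4 pericyte markers had a lower gate difference in tumours, and 1 pericyte marker a higher one. Between the tumour gates themselves 1 of 5 basal and 1 of 4 pericyte markers were higher and 1 of 5 luminal markers lower. The part of these markers in the result was not tested. The interaction shares its normal arrays with the normal gate comparison, so the counts are not separate evidence.

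Set against normal cells of the same gate, the tumour CD29+ and Lin- populations had lower respiratory chain signal. In tumour CD29+ cells 37 of the 83 genes were lower and 1 higher than in normal CD29+ cells, beside 27.1% and 16.4% of all genes, with a median of -0.41. In tumour Lin- cells 47 were lower and 0 higher than in normal Lin- cells, beside 26.6% and 13.9% of all genes, with a median of -0.52 beside -0.08 over all genes. Complex I had 20 of 34 genes lower in tumour CD29+ cells (median -0.65) and 23 of 34 in tumour Lin- cells (-0.81). Complex V had 4 lower and 1 higher of 17 in tumour CD29+ cells (-0.22) and 8 of 17 lower in tumour Lin- cells (-0.36). The assembly factors were lower for 5 and 6 of 8, complex II for 4 and 2 of 4, complex III for 2 and 3 of 8 and complex IV for 2 and 5 of 12, each pair of counts for CD29+ and then Lin- cells. The Lin- counts of 47 and 5 include Cox7a1, a gene near the low end of the range that passed the filter through normal arrays alone. The tumour CD29+ comparison shares the normal CD29+ arrays with the comparison of the normal gates. Without pool F 25 genes were called in CD29+ cells, 0 of them in complexes III and IV. In Lin- cells 43 of the 47 calls were kept without pool F.

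Luminal and basal markers moved in the same comparisons. In tumour against normal CD29+ cells 5 of 5 luminal markers were lower (median -3.48) and 4 of 5 basal markers higher (10.67), and in Lin- cells 5 of 5 luminal markers were lower (-4.85), 4 of 5 basal markers higher and 1 lower (3.44). The median signal of the luminal markers was 7.64 to 13.67 in tumour CD29+ arrays, against 14.83 to 14.91 in normal CD29+ arrays, and 6.80 to 12.04 in tumour Lin- arrays, against 14.77 to 14.90 in normal Lin- arrays. That of the basal markers was 13.07 to 13.86 in tumour CD29+ arrays, against 2.52 to 3.15 in normal CD29+ arrays, and 12.97 to 13.67 in tumour Lin- arrays, against 7.60 to 11.17 in normal Lin- arrays. The part of these markers in the lower respiratory chain signal was not tested.

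The sample descriptions carry numbers, under 30 for tumours A and B, from 56 to 64 for C and D, and from 82 to 95 for tumour E and the 3 pools. What these numbers record is not given. With their ranges as a block, the tumour and normal groups are set against each other through tumour E, so the differences rest on that tumour. No share over all genes is given for this fit, so its counts have no background beside them. In that limma fit 22 genes were lower and 2 higher in tumour CD29+ cells, and 31 lower and 1 higher in tumour Lin- cells, where the median was -0.33. In CD29+ cells complexes III and IV then had 0 calls, with medians of -0.05 and -0.01, and complex V had 2 lower (-0.06). In Lin- cells complex III had 0 lower and 1 higher, complex IV 2 lower and complex V 3 lower. Complex I had 12 lower and 1 higher in CD29+ cells (-0.31) and 19 lower in Lin- cells (-0.52).

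The CD29hi gate gave a different picture. In tumour CD29hi cells 13 of the 83 genes (15.7%) were higher and 4 (4.82%) lower than in normal CD29hi cells. Over all genes 15.6% were higher and 22.9% lower, so the share called higher was near that of all genes. The median was 0.20, with 63 of the 83 differences above 0. Complex I had 6 higher and 1 lower, the assembly factors 1 higher and 3 lower, complex II 0 called, complex III 1 higher, complex IV 2 higher and complex V 3 higher. This comparison shares the normal CD29hi arrays with the normal gate comparison, in which 50 genes were lower. The count moved with the setting: 33 were higher and 3 lower after quantile normalisation of the 24 arrays, which gave a median over all genes of 0.06 in place of -0.01, and 31 higher and 5 lower with the description-number block. With the actin covariate 6 were higher and 7 lower, without pool F 6 higher and 5 lower, and without pool H 7 higher and 3 lower. Endothelial markers were lower in tumour CD29hi cells for 6 of 6 and luminal markers for 4 of 5. The 1 tested white adipocyte marker, Fabp4, was lower (-6.03), and 3 of 4 pericyte markers were lower and 1 higher. Endothelial medians were 2.56 to 3.90 in tumour and 7.61 to 10.26 in normal CD29hi arrays. The part of all these markers in the result was not tested.

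Against Lin- cells, normal CD29hi cells had 58 of the 83 genes lower and 1, Ndufaf4, higher, beside 23.2% and 17% of all genes, with a median of -0.69. Complex I had 27 of 34 lower, complex IV 9 of 12, Cox7a1 again included, and complex V 13 of 17. In the same comparison 4 of 5 basal (median 3.27) and 4 of 6 endothelial markers (2.70) were higher and 1 of 5 luminal markers lower, and their part was not tested. Without pool F 32 genes were called in either direction. In tumours the same comparison called 1 of the 83, Cox7c, beside 4.63% of all genes lower and 3.74% higher, and the median was 0.04. With the tumour letter as a block Ndufaf4 was also called (-0.35, adjusted p = 0.0197 by limma).

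**Figure D3:**
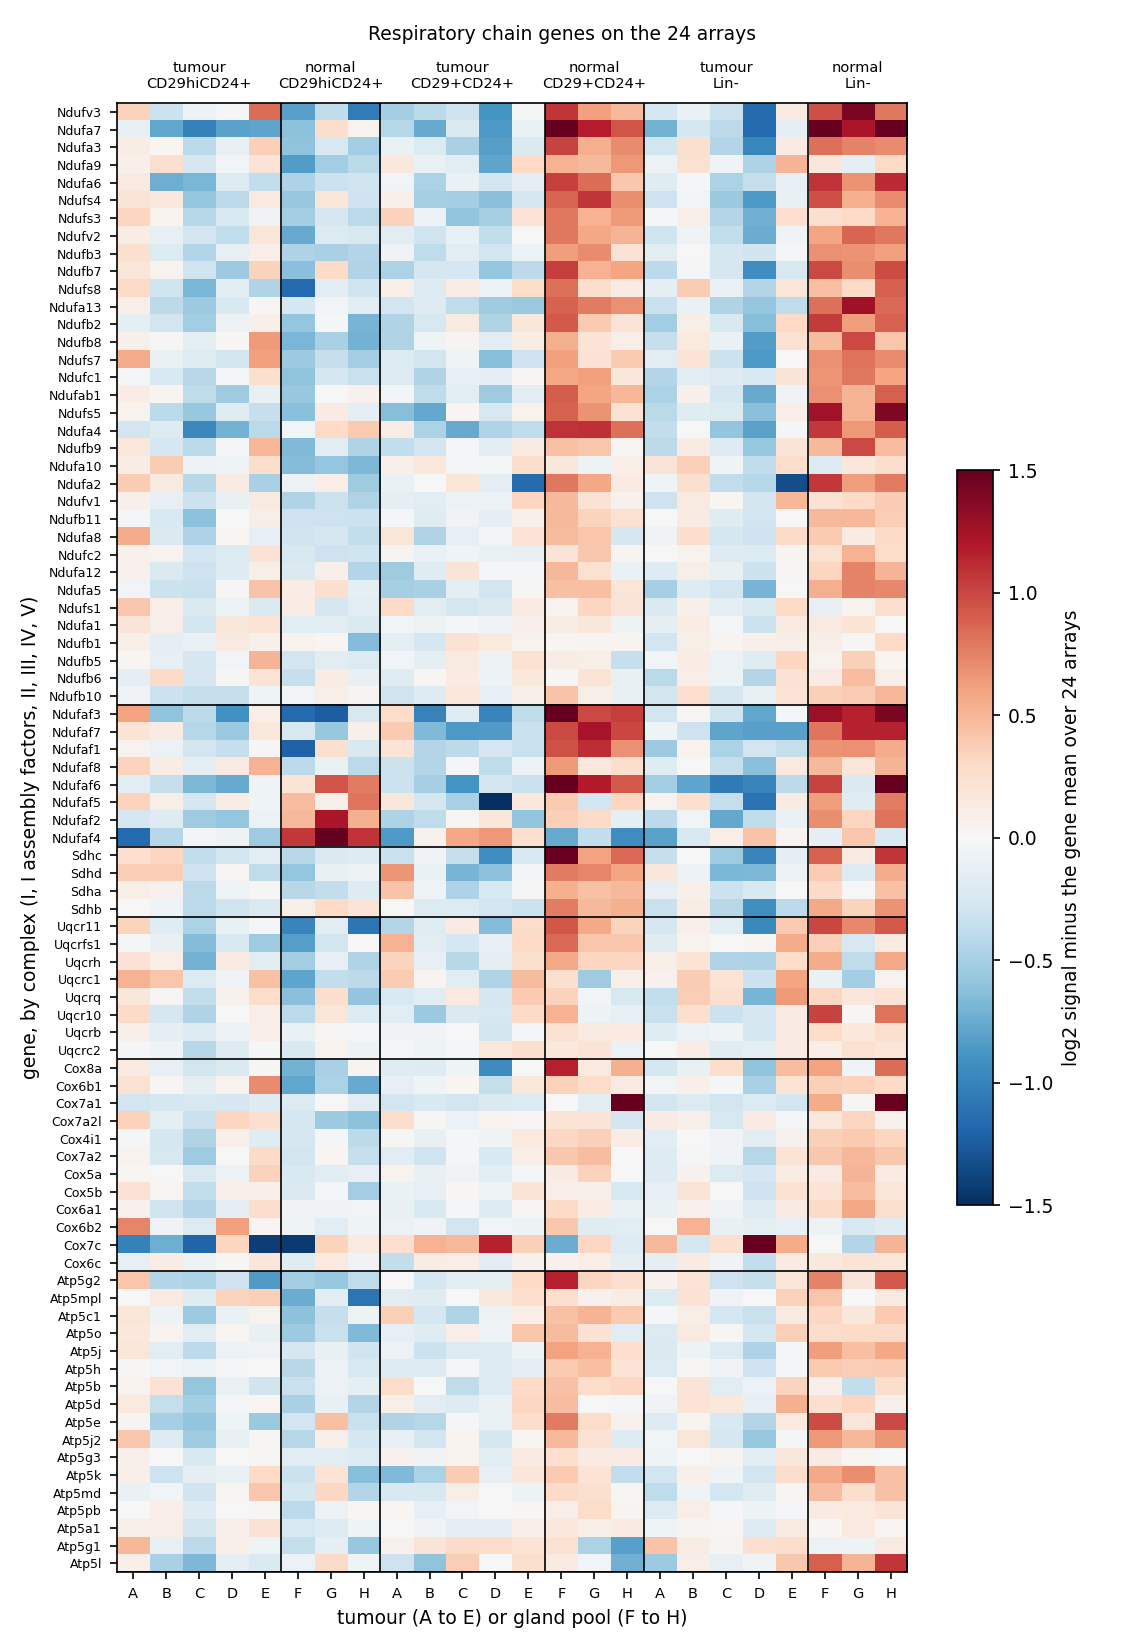
Log2 signal of each tested respiratory chain gene in the 24 arrays, as the difference from that gene's mean over all arrays (colour), with genes grouped by complex (rows) and arrays by population with tumours left of normal pools (columns). The normal CD29+ and Lin- columns are mostly above the gene means and the normal CD29hi columns mostly below.

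Complex I is described first by its catalytic arm, in which the NADH-binding flavoprotein Ndufv1 and the iron-sulfur proteins carry electrons to ubiquinone. Among the core genes of this arm, Ndufv1, Ndufv2, Ndufs3, Ndufs7 and Ndufs8 were lower in normal CD29hi than in normal CD29+ cells, and Ndufs1 was not called. The differences were -0.67 for Ndufv1, -1.02 for Ndufv2, -1.04 for Ndufs3, -0.88 for Ndufs7 and -0.95 for Ndufs8, and -0.29 for Ndufs1 (adjusted p = 0.218 by limma). The calls of Ndufv1, Ndufs7 and Ndufs8 were lost without pool F and, like that of Ndufs3, with the actin covariate. Ndufv2, which holds an iron-sulfur cluster next to the flavin site, had signals of 11.19, 10.95, 10.79, 10.71 and 11.25 in tumour CD29hi cells, against 10.32, 10.87 and 10.83 in normal CD29hi cells. In tumour CD29+ cells it had 10.90, 10.78, 10.96, 10.70 and 11.08, against 11.87, 11.65 and 11.58 in normal CD29+ cells. The normal CD29hi pools were all below the normal CD29+ pools (-1.02 ± 0.19 SE, adjusted p = 0.000118). Tumour Lin- cells were lower than normal Lin- cells (-1.06 ± 0.17, adjusted p = 3.03e-05). Ndufs7, a subunit close to the ubiquinone site, was lower in tumour Lin- cells (-0.96 ± 0.22, adjusted p = 0.0012) and higher in tumour CD29hi cells (0.59, adjusted p = 0.0367), a call lost without tumour A or E, without any 1 of the pools and with the actin covariate.

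Accessory subunits of complex I held the largest differences among its subunits. Ndufv3, an accessory subunit at the NADH-binding tip, had signals of 8.92, 9.36 and 8.69 in normal CD29hi cells, against 10.81, 10.35 and 10.22 in normal CD29+ cells and 10.71, 11.15 and 10.53 in normal Lin- cells. No normal CD29hi pool reached the others, and the difference from CD29+ cells was -1.47 ± 0.31 (adjusted p = 0.000569). In tumours its signals were 10.09, 9.42, 9.65, 9.71 and 10.58 in CD29hi cells, 9.23, 9.34, 9.43, 8.84 and 9.71 in CD29+ cells and 9.48, 9.64, 9.42, 8.59 and 9.87 in Lin- cells. The tumour gates overlapped, and the gate difference was higher in tumours than in normal glands by 2.05. Every tumour CD29hi array was above every normal CD29hi array (0.90, adjusted p = 0.0141), a call lost without pool F or without pool H.

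Ndufa7, another accessory subunit of the peripheral arm, had 10.37, 10.04, 10.58, 9.94 and 10.70 in tumour CD29+ cells, against 12.60, 11.98 and 11.74 in normal CD29+ cells. In tumour Lin- cells it had 10.09, 10.53, 10.40, 9.63 and 10.66, against 12.62, 12.02 and 12.67 in normal Lin- cells. The groups did not overlap in either population. It had the largest fall of any respiratory chain gene in both, -1.78 (adjusted p = 1.5e-05) in CD29+ and -2.17 ± 0.27 (adjusted p = 1.57e-06) in Lin- cells. In CD29hi cells its values were 10.67, 10.02, 9.78, 10.00 and 10.01 in tumours, against 10.18, 11.06 and 10.85 in normal pools, and the difference of -0.60 was not called (adjusted p = 0.0857). Ndufa13, also known as Grim19, was lower in tumour CD29+ cells (-1.17, adjusted p = 1.16e-06) and tumour Lin- cells (-1.35, adjusted p = 2.48e-07), and its signals of 11.68 to 12.16 in tumour Lin- cells lay below the 13.08 to 13.53 of normal Lin- cells. Ndufs5 (-1.32) and Ndufb7 (-1.26), subunits of the membrane arm, were also among the 8 lowest genes in tumour Lin- cells.

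Other accessory subunits differed by comparison. Ndufa3, a small membrane subunit, was lower in normal CD29hi than in normal CD29+ cells (-1.21 ± 0.25, adjusted p = 0.000414). Ndufa10, a subunit of the membrane arm, had 10.79, 11.06, 10.60, 10.61 and 10.94 in tumour CD29hi cells, against 10.03, 10.09 and 10.00 in normal CD29hi cells. All tumours were above all pools (0.76 ± 0.15, adjusted p = 0.000452). Ndufb8, also of the membrane arm, was higher in the same comparison by 0.75 (adjusted p = 0.00838), and Ndufa9, which lies near the ubiquinone site, by 0.64 (adjusted p = 0.0223). The Ndufa9 call was lost without tumour B, without pool F or pool G and with the actin covariate.

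Ndufa4 is grouped with complex I by its symbol, although its protein is now known as a subunit of complex IV. It was lower in tumours in all 3 populations. Its signals were 9.93, 10.01, 9.24, 9.50 and 9.81 in tumour CD29hi cells, against 10.17, 10.51 and 10.60 in normal CD29hi cells, a difference of -0.73 ± 0.21 (adjusted p = 0.00934). The groups did not overlap, and the call was lost after quantile normalisation (-0.45) and without pool H. In tumour CD29+ cells it had 10.32, 9.74, 9.45, 9.76 and 9.83, against 11.29, 11.30 and 11.03 in normal CD29+ cells (-1.39). Its paralogue Ndufa4l2, a hypoxia-induced gene that is no member here, went the other way in the stem cell gate: it had 5.49 to 7.89 in tumour CD29hi cells, against 1.86 to 1.90 in normal CD29hi cells, and the normal signals are at the low end of the range.

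The assembly factors hold the genes with the largest differences between the normal gates in both directions. Ndufaf3 and Ndufaf4 encode partner proteins of an early step in building the ubiquinone-binding arm of complex I, and they differed in opposite directions between the normal gates. Ndufaf3 had 5.37, 5.30 and 6.29 in normal CD29hi cells, against 8.15, 7.53 and 7.57 in normal CD29+ cells (-2.10 ± 0.38, adjusted p = 0.00011). Ndufaf4 had 10.41, 11.26 and 10.44 in normal CD29hi cells, against 8.60, 8.98 and 8.42 in normal CD29+ cells (2.04 ± 0.37, adjusted p = 0.000119) and 9.21, 9.76 and 9.12 in normal Lin- cells (1.34, adjusted p = 0.00634). Neither gene's normal gates overlapped. In tumours Ndufaf4 had 8.19, 8.92, 9.31, 9.28 and 8.82 in CD29hi cells and 8.50, 9.42, 9.93, 10.00 and 9.59 in CD29+ cells, so every tumour CD29hi array was below every normal CD29hi array (-1.80 ± 0.33, adjusted p = 0.000206). A second probe set of Ndufaf4 gave 1.96 between the normal gates and -1.95 between tumour and normal CD29hi cells.

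Several other assembly factors were lower in tumours. Ndufaf2, a late-acting assembly chaperone, had 8.47, 8.53, 8.19, 8.15 and 8.64 in tumour CD29hi cells, against 9.21, 9.95 and 9.26 in normal CD29hi cells (-1.08 ± 0.22, adjusted p = 0.00054). No tumour reached a normal pool. Ndufaf6 was lower in all 3 tumour populations, at -1.04 ± 0.32 (adjusted p = 0.0124) in CD29hi, -1.70 in CD29+ and -1.57 in Lin- cells, and the CD29hi call was lost with the description-number block. Ndufaf7, a methyltransferase needed for complex I assembly, was lower in tumour CD29+ (-1.53) and Lin- cells (-1.59) and in normal CD29hi against normal CD29+ cells (-1.32 ± 0.31, adjusted p = 0.00134). Ndufaf1, which acts in building the membrane arm, was also lower between the normal gates (-1.31 ± 0.27, adjusted p = 0.000424). Ndufaf8 was higher in tumour CD29hi than in normal CD29hi cells (0.49 ± 0.18, adjusted p = 0.0351), with overlapping groups. That call was lost without tumour A, B or E, without pool F or H and with the actin covariate.

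**Figure D4:**
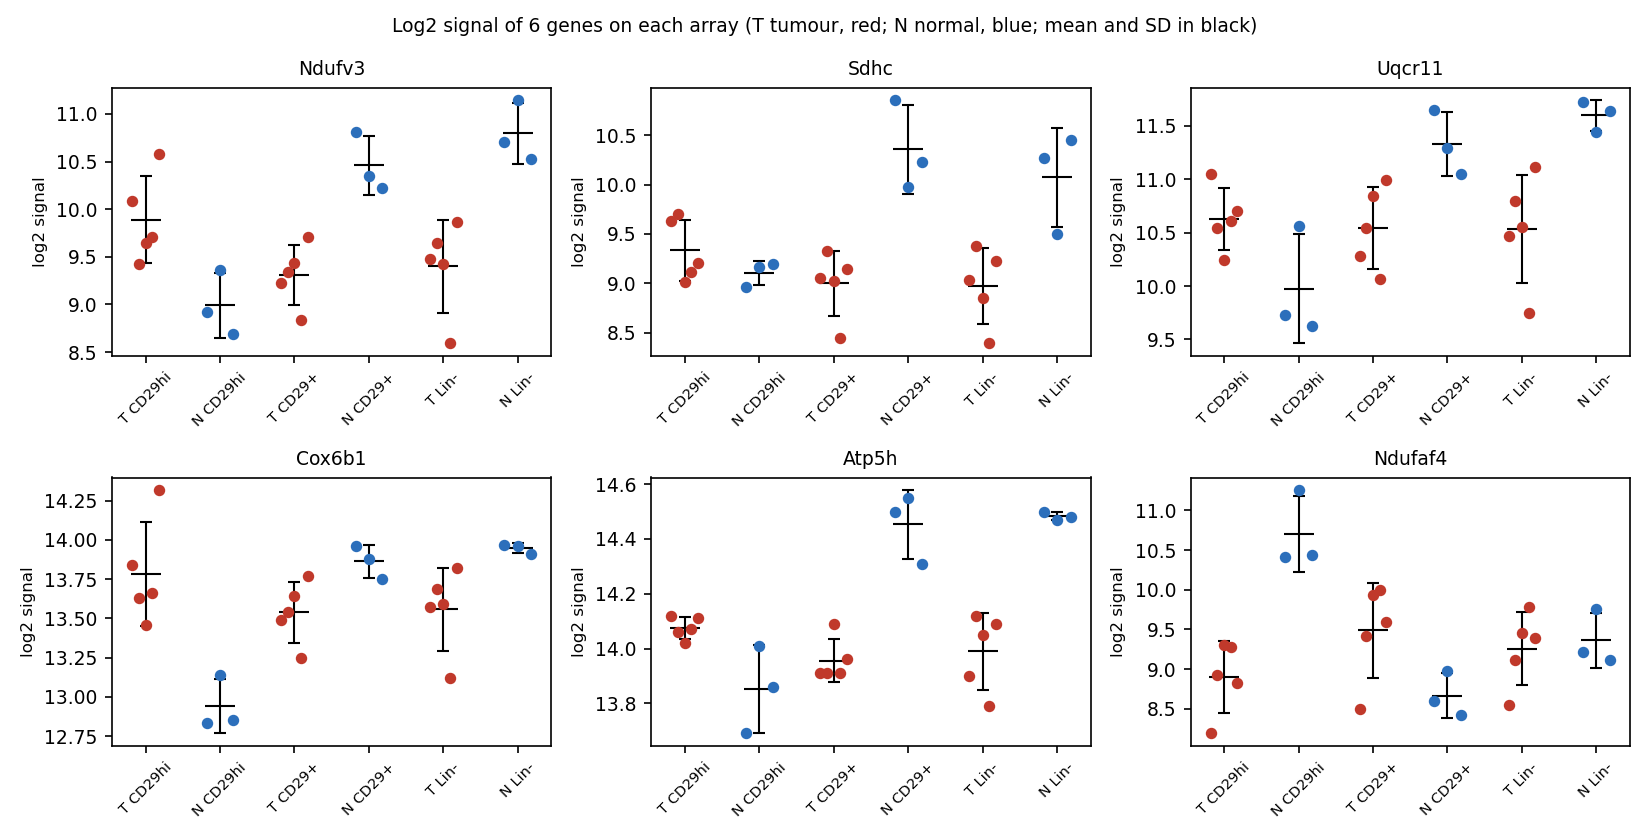
Log2 signal per array (vertical axis) of Ndufv3, Sdhc, Uqcr11, Cox6b1, Atp5h and Ndufaf4 in the 3 populations, tumours (red) left of normal pools (blue). Points are arrays and black marks are group means with SD. Ndufaf4 is highest in the 3 normal CD29hi arrays (10.41 to 11.26), in which the other genes shown are below the normal CD29+ arrays.

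The 4 genes of complex II were lower in tumour CD29+ than in normal CD29+ cells, although the call of the membrane anchor Sdhd was lost without pool F, without pool G and with the actin covariate. The flavoprotein Sdha had 11.45, 10.98, 10.56, 10.80 and 11.05 in tumour CD29+ cells, against 11.56, 11.47 and 11.51 in normal CD29+ cells (-0.55 ± 0.16, adjusted p = 0.0081). Its normal CD29hi values of 10.61, 10.66 and 10.83 were all below the normal CD29+ values (-0.81 ± 0.18, adjusted p = 0.000753). Sdhc, a membrane anchor, had 8.96, 9.16 and 9.19 in normal CD29hi cells, against 10.86, 9.98 and 10.23 in normal CD29+ cells (-1.25 ± 0.29, adjusted p = 0.00124), and the groups did not overlap. With the actin covariate that difference was -0.58 and no longer called (adjusted p = 0.0746). In tumours Sdhc had 9.63, 9.70, 9.01, 9.11 and 9.21 in CD29hi cells and 9.05, 9.33, 9.02, 8.45 and 9.14 in CD29+ cells, and the gate difference was higher in tumours by 1.59. The iron-sulfur subunit Sdhb was lower in tumour CD29+ (-0.80 ± 0.16, adjusted p = 0.000348) and tumour Lin- cells (-0.92 ± 0.16, adjusted p = 9.73e-05), and between the normal gates its difference of -0.40 was not called (adjusted p = 0.073).

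In complex III the small subunit Uqcr11 had the largest difference. It had 9.73, 10.56 and 9.63 in normal CD29hi cells, against 11.65, 11.29 and 11.05 in normal CD29+ cells (-1.36 ± 0.30, adjusted p = 0.000939). The normal gates did not overlap, while the tumour gates did, at 11.05, 10.54, 10.24, 10.61 and 10.70 in CD29hi and 10.28, 10.54, 10.84, 10.07 and 10.99 in CD29+ cells. The gate difference was higher in tumours by 1.44, a call lost without pool F (1.15) and with the actin covariate (1.04). The Rieske iron-sulfur protein Uqcrfs1 was lower in normal CD29hi than in normal CD29+ cells (-0.93 ± 0.25, adjusted p = 0.00366), and so was the hinge protein Uqcrh (-0.76 ± 0.27, adjusted p = 0.0261). Both calls were lost without pool F and with the actin covariate, and that of Uqcrh also without pool H. The core protein Uqcrc1 was higher in tumour CD29hi cells, at 11.86, 11.76, 11.14, 11.29 and 11.78, against 10.55, 10.98 and 10.95 in normal CD29hi cells (0.74, adjusted p = 0.0194), without overlap. That call was lost without tumour B, without pool F and with the actin covariate.

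Complex IV has tissue-specific forms of several subunits. Of the heart and skeletal muscle forms, Cox6a2 and Cox8b did not pass the filter, and neither did the lung form Cox4i2 or the testis forms Cox7b2 and Cox8c. Cox7a1, the muscle form of subunit 7a, passed it through 3 normal arrays, the Lin- arrays of pools F and H (3.25 and 4.79) and the CD29+ array of pool H (4.26), and was at 2.40 to 2.71 in the other 21. Its call in tumour Lin- cells (-1.14 ± 0.33, adjusted p = 0.00892) is against signals at the low end of the range and gives no level of change. Cox6b2, the testis form of subunit 6b, had group means of 3.74 to 4.12. The widely expressed forms Cox4i1 and Cox6b1 had group means of 13.36 to 13.95 and 12.94 to 13.94.

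Among the widely expressed complex IV genes, Cox6b1, which lies on the cytochrome c side of the enzyme, had the largest calls in tumour CD29hi cells. It had 13.84, 13.63, 13.46, 13.66 and 14.32 in tumour CD29hi cells, against 12.83, 13.14 and 12.85 in normal CD29hi cells (0.84 ± 0.16, adjusted p = 0.000365). Normal CD29+ cells had 13.96, 13.88 and 13.75, so the normal CD29hi pools were below both (-0.92 ± 0.18 between the normal gates, adjusted p = 0.00031). Cox4i1, an early-assembled subunit, was lower between the normal gates (-0.48 ± 0.12, adjusted p = 0.00222). So were the small subunits Cox7a2 (-0.48 ± 0.18, adjusted p = 0.0358) and Cox8a (adjusted p = 0.0136), and Cox7a2l (-0.52 ± 0.17, adjusted p = 0.0168). The calls of Cox7a2, Cox8a and Cox7a2l were lost without pool F and in a fit of the normal gates alone. Those of Cox7a2 and Cox7a2l were also lost without pool G, and that of Cox7a2 without pool H. With the actin covariate the calls of Cox7a2 and Cox8a were lost. Cox7a2l was higher in tumour CD29hi cells (0.55 ± 0.15, adjusted p = 0.00643), a call lost in a fit of these groups alone.

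Cox7c, a small complex IV subunit, was the gene called between tumour CD29hi and tumour Lin- cells. It had 7.46, 7.74, 7.27, 8.79 and 7.06 in tumour CD29hi cells, against 8.95, 8.21, 8.71, 10.23 and 9.02 in tumour Lin- cells and 8.72, 8.99, 8.95, 9.62 and 8.83 in tumour CD29+ cells. It was lower in CD29hi cells within each of the 5 tumours, although the groups overlapped through tumour D. Against Lin- cells the difference was -1.36 ± 0.39 (adjusted p = 0.0335, a call lost without tumour A, C or E or without pool H), and against CD29+ cells -1.36 ± 0.39 (adjusted p = 0.0514). With the tumour letter as a block both were called by limma (adjusted p = 0.00301 and 0.00431). In normal cells it had 7.03, 8.80 and 8.60 in CD29hi and 7.72, 8.78 and 8.28 in CD29+ cells, which overlapped.

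In complex V the catalytic subunits Atp5a1 and Atp5b were lower between the normal gates by small amounts, -0.29 ± 0.11 (adjusted p = 0.0324) and -0.52 ± 0.20 (adjusted p = 0.0407), and both calls were lost without any 1 of the pools and with the actin covariate. Atp5h, subunit d of the stalk that holds the catalytic head, had a small difference with little spread. It had 14.12, 14.06, 14.02, 14.07 and 14.11 in tumour CD29hi cells, against 13.69, 14.01 and 13.86 in normal CD29hi cells, and 13.91, 13.91, 14.09, 13.91 and 13.96 in tumour CD29+ cells, against 14.50, 14.55 and 14.31 in normal CD29+ cells. Normal CD29hi cells were lower than normal CD29+ cells (-0.60 ± 0.09, adjusted p = 2.55e-05), tumour CD29+ cells lower than normal CD29+ cells (-0.49 ± 0.08, adjusted p = 6.84e-05) and tumour CD29hi cells slightly higher than normal CD29hi cells (0.22 ± 0.08, adjusted p = 0.0429). The last call was lost under 11 of 19 alternatives, among them the letter as a block, the actin covariate and leaving out tumour A, B or E or pool F or H. The small membrane protein Atp5mpl was higher in tumour CD29hi cells, at 9.41, 9.55, 9.23, 9.75 and 9.77, against 8.67, 9.24 and 8.32 in normal CD29hi cells (0.80 ± 0.18, adjusted p = 0.00161), with an overlap of tumour C and pool G.

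The 3 genes of the c subunit, Atp5g1, Atp5g2 and Atp5g3, encode the same mature protein of the membrane ring and were called differently. Atp5g2 was lower in normal CD29hi than in normal CD29+ cells (-1.07 ± 0.27, adjusted p = 0.00288), as was Atp5g3 (-0.34 ± 0.09, adjusted p = 0.00552), while Atp5g1 was at -0.00 ± 0.21. The Atp5g2 and Atp5g3 calls were lost without pool F and with the actin covariate. Atp5g1 was the only respiratory chain gene higher in tumour CD29+ than in normal CD29+ cells, at 10.18, 10.31, 10.40, 10.39 and 10.32, against 10.34, 9.64 and 9.30 (0.56 ± 0.19, adjusted p = 0.0223). The groups overlapped through pool F, and the call was lost with the description-number block, in a fit of these groups alone and without tumour D, pool G or pool H. No test of the difference between the 3 genes was run.

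Genes with several probe sets gave a check on the choice of probe set. Between the normal gates, 32 of the called genes had further probe sets past the filter, and for 24 of them another was called in the same direction. For 2 genes another probe set was called the opposite way: Ndufs4, an accessory subunit of complex I (1.20, against -1.11 from the brightest probe set), and Ndufb8 (1.03, against -0.91, a call lost without pool F and with the mean of its probe sets). The same Ndufs4 probe set also gave a lower gate difference in tumours (-1.78, against 1.38). The other Ndufs4 probe sets were called in the direction of the brightest. They gave -2.65 and -0.58 between the normal gates, and 3.15 and 0.73 for the gate difference.

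The promoters are shown for 3 genes that differed between the normal gates and that carry a motif of a known regulator of respiratory chain genes. They are the 250 bases before the transcription start in RefSeq's annotation of GRCm38.p6, 5′ to 3′, with the motif in capitals. In Uqcr11 the capitals mark the ETS motif CCGGAAG, in Ndufa6 (an accessory subunit of complex I) the NRF1 core GCATGCGC, and in Ndufaf4 overlapping NRF1 cores on both strands.
Uqcr11, chr10:80406822-80407071, minus strand: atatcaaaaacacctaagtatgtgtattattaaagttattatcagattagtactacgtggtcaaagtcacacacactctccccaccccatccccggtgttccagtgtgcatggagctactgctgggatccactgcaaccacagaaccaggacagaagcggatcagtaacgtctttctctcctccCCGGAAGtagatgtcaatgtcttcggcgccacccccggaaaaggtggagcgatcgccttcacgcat
Ndufa6, chr15:82354292-82354541, minus strand: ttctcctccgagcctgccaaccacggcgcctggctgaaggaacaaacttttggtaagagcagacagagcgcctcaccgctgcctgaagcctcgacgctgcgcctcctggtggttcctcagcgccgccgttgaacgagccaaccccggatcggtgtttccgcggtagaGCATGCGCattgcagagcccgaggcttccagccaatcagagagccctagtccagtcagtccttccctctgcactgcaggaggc
Ndufaf4, chr4:24897833-24898082, plus strand: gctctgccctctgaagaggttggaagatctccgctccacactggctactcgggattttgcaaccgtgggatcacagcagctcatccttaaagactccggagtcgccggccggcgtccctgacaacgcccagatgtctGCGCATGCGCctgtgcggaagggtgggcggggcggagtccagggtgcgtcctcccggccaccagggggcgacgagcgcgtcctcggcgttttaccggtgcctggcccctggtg

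Uqcr11 and Ndufa6 were lower in normal CD29hi than in normal CD29+ cells, and Ndufaf4 was higher. Ndufa6 had 10.28, 10.42 and 10.44 in normal CD29hi cells, against 11.76, 11.58 and 11.15 in normal CD29+ cells (-1.12 ± 0.20, adjusted p = 0.00012). The lower genes were chosen for carrying a motif, and Ndufaf4 for being called higher. These promoters therefore say nothing about the NRF1 core and the direction of a difference. With the 50 bases after the start included, Uqcr11 also had an NRF1 core. The motif start was 66 bases before the transcription start in Uqcr11, 83 in Ndufa6, and 111 and 113 in Ndufaf4. Ndufaf3, Ndufv3 and Ndufa7 had neither of these motifs nor that of YY1 in the same 250 bases, which says only that these letters are not in that window.

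Over all promoters, RefSeq windows of 300 bases (250 before and 50 after the start) were searched on both strands, and 74 of the 89 genes had at least 1 window, 79 in all. The NRF1 core was in 11 of the 79 windows (13.9%), against 2.71% of all 32851 windows. The ETS motif was in 19 (24.1%, against 8.86%), and the YY1 motif AAGATGGC in 10 (12.7%, against 2.75%). The ERR element AAGGTCA was in 8 (10.1%, against 4.72%), the GC box GGGCGG in 36 (45.6%, against 35.7%) and the CCAAT box in 33 (41.8%, against 37.4%). The E box CACGTG was in 7 (8.86%, against 7.15%) and the hypoxia element ACGTG, which lies within the E box, in 20 (25.3%, against 19.6%). Of the 49 windows of genes lower in normal CD29hi against CD29+ cells, 3 had the NRF1 core, 12 the ETS motif and 9 the YY1 motif. Of the 30 windows of the other genes, 8 had the NRF1 core, 7 the ETS motif and 1 the YY1 motif. These are counts of letters, and no test was made on them.

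The regulators themselves differed by gene. In normal CD29hi against normal CD29+ cells the coactivators Pprc1 (1.86) and Ppargc1b (1.85), Myc (1.49) and Yy1 (0.65) were higher. Esrra (-0.95), the mitochondrial DNA helicase Twnk (-2.38) and the mitochondrial transcription and ribosome factors Tfb1m (-2.04), Mterf1a (-1.92) and Mterf4 (-1.24) were lower. Nrf1 (0.39), Gabpa (0.59), Tfam (0.21) and Ppargc1a (-0.01) were not called. In tumour Lin- against normal Lin- cells Twnk (-3.44), Tfb1m (-1.17) and Tfam (-0.77) were lower, and Yy1 (1.05), Ppargc1b (1.02), Ppargc1a (1.69) and Esrra (0.54) were higher. In total 4 of 20 regulators were higher and 5 lower between the normal gates, and 4 higher and 6 lower in tumour Lin- cells. These counts are near the shares over all genes, 21.3% higher and 25.3% lower between the normal gates and 13.9% and 26.6% in Lin- cells.

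Other mitochondrial gene lists were read beside the respiratory chain, against 25.3% of all genes lower and 21.3% higher between the normal gates and 26.6% and 13.9% in tumour Lin- against normal Lin- cells. Between the normal gates 28 of 76 mitochondrial ribosomal protein genes were lower and 4 higher (median -0.45), 12 of 35 assembly factors outside the Ndufaf genes were lower and 2 higher, 7 of 14 genes for electron carriers and ubiquinone synthesis were lower and 1 higher, and 5 of 16 genes of the citric acid cycle and pyruvate dehydrogenase were lower and 0 higher. Of 23 genes of mitochondrial import and cristae 4 were lower and 3 higher. The proteasome, a complex outside mitochondria, had 17 of 37 genes lower and 1 higher, and the cytosolic ribosome 2 of 44 lower and 3 higher. In tumour Lin- against normal Lin- cells 38 of 76 mitochondrial ribosomal protein genes, 16 of 35 assembly factors and 7 of 14 carrier genes were lower and 0 higher in each, while of the 16 genes of the citric acid cycle and pyruvate dehydrogenase 3 were lower (median 0.01). Examples were Cox17, which carries copper to complex IV (-1.53), Coq7, an enzyme of ubiquinone synthesis (-0.99), and Uqcc3, an assembly factor of complex III (-1.5). A hypoxia list, which had 8 tested genes, was higher for 3 in tumour CD29hi against tumour CD29+ cells. In that comparison 2.25% of all genes were higher and 1.94% lower, and the respiratory chain genes had 0 calls. Among the 3 hypoxia genes were the mitophagy gene Bnip3 (2.45 ± 0.36, adjusted p = 0.000709 by limma) and Higd1a, a mitochondrial protein induced by hypoxia (0.78 ± 0.17, adjusted p = 0.0121).

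**Figure D5:**
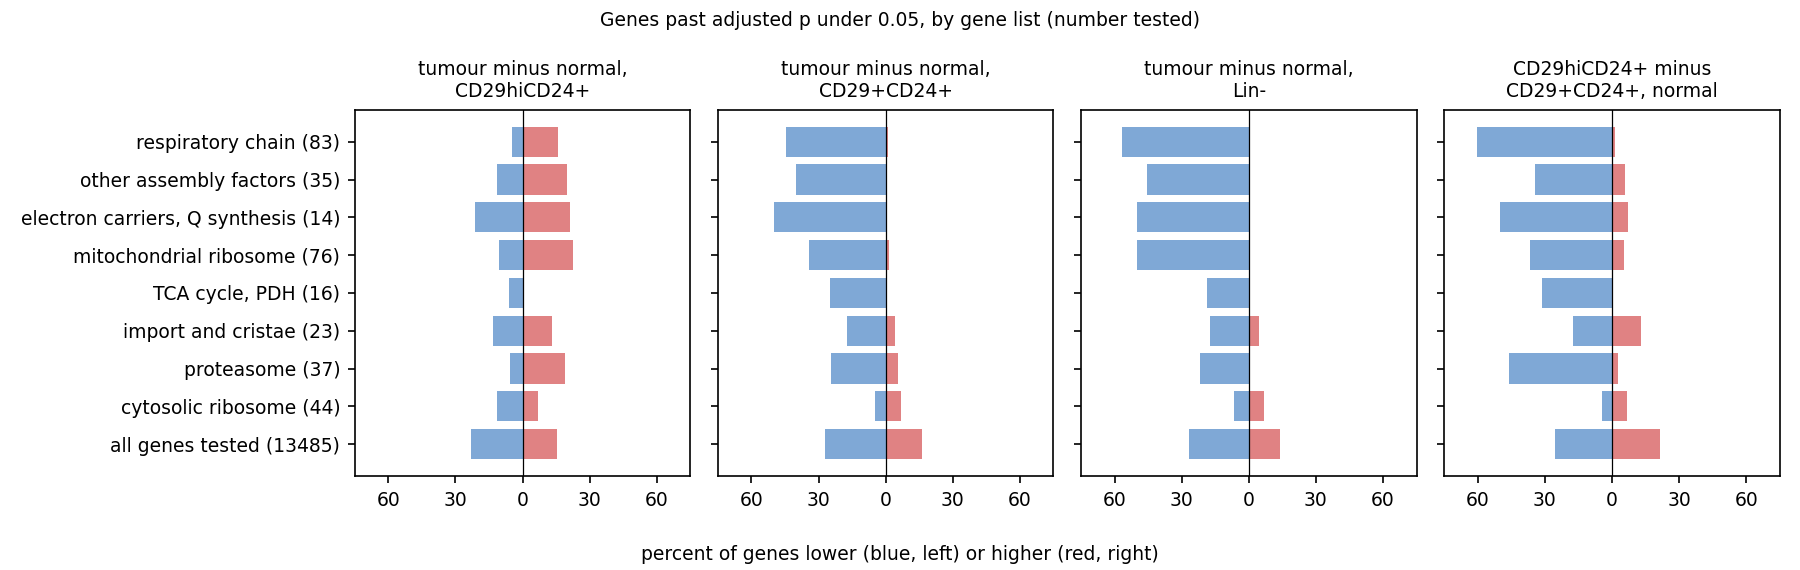
Share of tested genes called higher and lower (horizontal axis, percent, lower to the left and higher to the right) for the respiratory chain, the other mitochondrial lists, the proteasome and the cytosolic ribosome, with all genes as the background, in the comparisons of tumour with normal cells and of the gates in normal glands. Between the normal gates 50 of 83 respiratory chain genes and 2 of 44 cytosolic ribosome genes are lower.

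The respiratory chain genes encoded in mitochondrial DNA are no members by the rule. ND5, a proton-pumping core subunit of complex I from that genome, was looked at after its values were seen. It had 13.27 to 13.36 in normal CD29hi cells, against 12.64 to 13.07 in normal CD29+ cells. The difference was 0.42 and was not called (adjusted p = 0.218), nor was any of the other 7 comparisons of this gene.

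Within groups, the median SD over the 83 genes was 0.27 in tumours and 0.22 in normal pools. Arrays of the same tumour deviated together across all genes (median r = 0.578 in 15 pairs). For different tumours the median was -0.167 in 60 pairs, and removing the group means by itself pushes this value below 0. In all, 11 of the 83 genes were called in none of the 8 comparisons. No share over all genes is given beside this count, so it says nothing particular about these genes.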

How the data were processed

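RNA of 10000 sorted cells per population was isolated with a micro column kit, amplified and biotin-labelled in 2 cycles and hybridised to Affymetrix arrays, per the labels' protocols. The authors deposited a log2 signal per probe set, and the submitters' processing notes name RMA, GCRMA and Partek, but their versions, roles and order are not given in the sources consulted. Differences between low signals may be compressed on such a scale, but which background correction was used is not known. Values ran from 0.489 to 16.0552, and the precision is limited by the number of arrays.

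Of 45101 probe sets, 34945 had 1 gene symbol. A probe set was kept if its signal was above 2.8289, which is percentile 40 of the deposited values, on 3 or more of the 24 arrays, which kept 24278, and the brightest per gene was used (13485 genes tested). For 20 of the 89 respiratory chain genes it is of a type that can match several transcripts. limma 3.58.1 (R 4.3.3), checked on simulated data, was fitted with 1 mean per group over all arrays (trended variance), with Benjamini-Hochberg adjustment over all genes at 0.05. The single respiratory chain genes named are mainly the 8 highest and 8 lowest called of a comparison, the catalytic and isoform genes and the extremes of each complex. Others were named outside this rule, among them Atp5h, Uqcrh and Ndufaf8, and genes whose sign turned under an alternative. Where 2 pool titles carry no letter, pool H was assigned because F and G were complete.

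The letters pair arrays of the same tumour or pool by the titles. Same-letter arrays correlated with a median r of 0.578 (lowest 0.359) for tumours and 0.142 (lowest -0.038) for pools, with group means removed. The genes, lists and comparisons were chosen with earlier results of these data known. The ND5 reading, the promoters shown and the form of the NRF1 motif (a longer form was also searched) were chosen after their values or matches were seen.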

Additional observations from a re-analysis of the deposited data

Results flagged for a closer look

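The gate difference (CD29hi minus CD29+) differed between tumours and normal glands, by the limma interaction term, for 40 of the 83 respiratory chain genes, of which the named ones are given here. In tumours minus normal glands it was -2.62 for Ndufaf4, 2.32 for Ndufaf3, 2.05 for Ndufv3, 1.68 for Ndufaf7, 1.59 for Sdhc, 1.57 for Ndufa3, 1.44 for Uqcr11, 1.42 for Ndufaf1 and 1.38 for Ndufs4 (log2). For Ndufs4 another probe set gave -1.78, and the remaining ones gave 3.15 and 0.73.

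In 2 of 102 groups of 5 tumour arrays examined for a single distant value, 1 array lay far from the others, where chance gives about 5%. Ndufaf1 was 7.33 in the CD29+ cells of tumour A and 6.68 to 6.87 in those of the other tumours. Ndufa7 was 10.67 in the CD29hi cells of tumour A and 9.78 to 10.02 in the others. Groups of 3 normal pools were not examined in this way.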

How the results depend on the processing

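Values are counts of respiratory chain genes called by limma. Over all genes, counts or shares are given only for the main fit and, where stated, quantile normalisation. With 1 tumour or pool left out in turn, tumour against normal gave 10 to 20 calls in CD29hi, 25 to 43 in CD29+ and 42 to 52 in Lin- cells, against 17, 38 and 47 with all arrays. CD29hi against CD29+ gave 27 to 53 in normal glands (51 with all) and 0 to 1 in tumours (0), their difference 23 to 43 (40), and CD29hi against Lin- gave 32 to 60 in normal glands (59) and 0 to 1 in tumours (1). The low ends of 25, 27, 23 and 32 came without pool F, that of 10 without pool H (11 without F) and that of 42 without tumour D or pool G. The count in tumour CD29hi against Lin- cells was 0 without tumour A, C or E or pool H, and between the tumour gates it was 1 without tumour D or pool F. Leaving out the normal CD29hi array of pool F alone gave 40 calls between the normal gates and 1 between the tumour gates.

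Quantile normalisation gave 36 calls in tumour against normal CD29hi cells and a median gate difference of 0.83 in place of 0.61, shifting the median of all genes by up to 0.117. Over all genes it changed 2105 higher and 3094 lower into 2882 and 2483 in tumour against normal CD29hi cells, and 504 and 624 into 792 and 494 in tumour CD29hi against Lin- cells. The description-number block gave 36 calls in tumour against normal CD29hi and 24 in CD29+ cells, a median of -0.33 in Lin- cells, and 2 calls between the tumour gates. The actin covariate gave 28 calls between the normal gates, 1 between the tumour gates and 26 for their difference. A stricter low-value filter gave 1 call between the tumour gates.

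With the letter as a replicate block 4 genes were called between the tumour gates and 2 in tumour CD29hi against Lin- cells, and no other count moved by over 1.5 times. The CD29hi against Lin- count was 0 with the mean of all probe sets, with only the groups compared, and with only probe sets that are not of the _x_at or _s_at type, an alternative chosen after seeing the data. The causes of these moves were not tested. Of the 253 calls of single genes over the 8 comparisons, 123 kept direction and call under every alternative run and 130 did not. The sign turned in 7 instances, none past the threshold. With the mean of all probe sets, Ndufab1 was 0.14 between the normal gates and -0.12 for the gate difference, and Ndufb8 0.0612 between the normal gates. With only probe sets not of the _x_at or _s_at type, Ndufab1 was 0.36 and -0.47 in the same comparisons, Ndufa12 0.78 in tumour against normal Lin- cells and Atp5c1 -0.33 for the gate difference. No array spike-in or depth measure was used, and 3 pools limit every normal value.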
